A study of Mus musculus with 4 samples.

Results

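The genes described here handle the calcium of the sarcoplasmic reticulum (SR), the internal calcium store of muscle cells. They were chosen by name as the calcium release, storage, reuptake and extrusion genes of cardiomyocytes, and comprise 10 of the 24637 genes measured: *Ryr2*, *Trdn*, *Jph2*, *Casq1*, *Casq2*, *Hrc*, *Atp2a2*, *Pln*, *Sln* and *Slc8a1*. Messenger RNA was sequenced from 4 libraries of mouse embryonic stem cells (ESCs) made to differentiate towards cardiomyocytes, 2 labelled WT (Taf4+/+) and 2 labelled Taf4a-/- (Taf4-/-). ESCs had been kept with LIF on inactivated mouse embryonic fibroblast feeders, were then grown for 5 days as embryoid bodies in medium with serum, and were collected on day 9 after transfer to gelatin. No agent differed between the genotypes. Per the study's methods, 2 WT and 2 null ESC lines came from crosses of heterozygous mice, and the null allele lacks internal exons of *Taf4a*, which encodes a subunit of the TFIID complex that assembles at promoters. Those methods describe the sequenced RNA as 2 biological replicates, taken from independent lines, WT and null. The labels do not say which line a library came from, or whether the 2 replicates of a genotype are separate lines.

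In the heartbeat, calcium enters through the voltage-gated channel of the cell membrane and opens the ryanodine receptor *Ryr2* of the SR, which releases far more calcium from the store. Calsequestrins hold calcium inside the SR close to the receptor, and triadin ties them to it. To relax, the pump SERCA2, encoded by *Atp2a2*, returns calcium to the SR under the restraint of phospholamban, and the sodium-calcium exchanger *Slc8a1* exports the rest.

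Reads counted on genes numbered between 21732746 and 27733034 per library. The targeted gene, *Taf4a* (ENSMUSG00000039117), was counted at 889 and 678 in the WT pair and at 1722 and 1799 in the libraries labelled Taf4a-/- (normalized counts). Its count was thus not lower where the label says null but higher, by 1.18 ± 0.16 (standard error) on the log2 scale (limma, adjusted p = 0.00569). A gene on the other strand, *4921531C22Rik*, overlaps 1.34% of the exon bases of *Taf4a*. It had 46.5 and 42.6 normalized counts in WT and 272 and 387 in the others, and its part in the *Taf4a* count was not tested. The *Taf4a* count covers the whole gene, which includes exons left on the null allele, and the deleted exons were not counted apart here. The genotypes are therefore those of the labels. Values are read counts that the authors divided by a size factor for each library, and fold changes are differences of log2(normalized count + 1), libraries labelled Taf4a-/- minus WT, which understate the change of genes with few reads.

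Both *Ryr2* and most of its partners were lower in the libraries labelled Taf4a-/-, while the small difference of the pump *Atp2a2* was not called. With limma, 9 of the 10 genes had enough reads for the test, of which *Pln*, *Trdn* and *Casq2* passed the filter on low values through their WT counts. Of these, 7 were lower at a p-value under 0.05 after Benjamini-Hochberg adjustment, 0 were higher and 2 were not called, when 17.3% of the 16926 genes tested were lower and 11.3% were higher. In numbers these were 2928 lower and 1906 higher, a split that became 2460 and 2624 when the log2 values were quantile normalized, with a median of 0.11 over all genes. All 9 had a negative fold change, both with limma and with voom on the recovered reads, so that 0 were higher at an unadjusted p under 0.05 also. In all 9 genes both libraries labelled Taf4a-/- lay below both WT libraries, which was the case for 36.6% of all genes tested. Their median log2 fold change was -2.92, beside -0.01 for all genes tested. A log2 fold change of -2 or less was seen in 7 of the 9 genes and in 6.09% of all genes. In bulk RNA, fewer cardiomyocytes and less of a messenger in each of them cannot be told apart. The genes of the contractile apparatus were lower too: of 17 sarcomere genes, 15 were tested and all 15 were lower, with a median of -3.47.

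**Figure D1:**
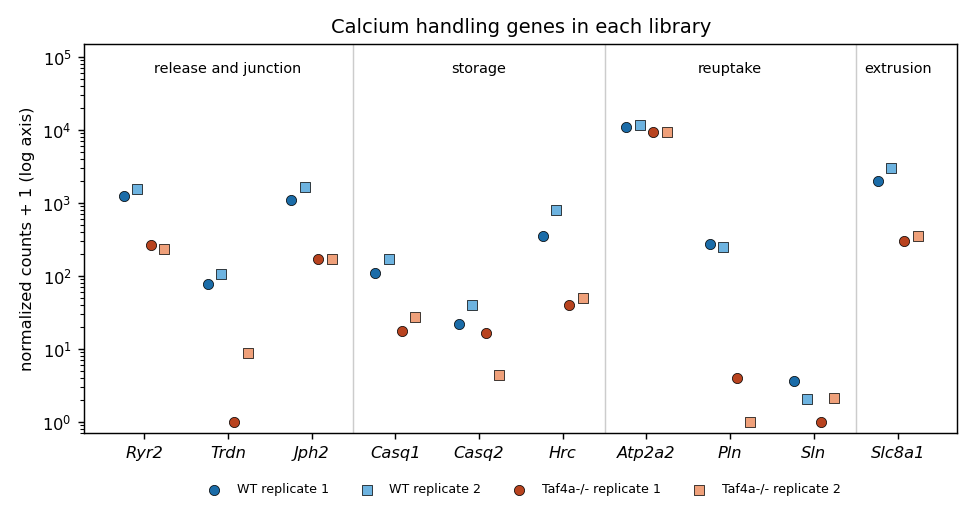
Normalized counts plus 1 of the 10 calcium handling genes (log axis), ordered by role, with 1 point for each library (blue, WT; red, labelled Taf4a-/-; circles, replicate 1; squares, replicate 2). *Atp2a2* stays between 9287 and 11688 in all 4 libraries, whereas *Pln* goes from 246 to 269 in WT to 0 and 2.94.

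The 250 bases upstream of the RefSeq start sites of *Pln*, *Casq2* and *Slc8a1* are shown as examples of a gene with almost no RNA left, a gene with few reads and no call, and an abundant messenger that was lower. The sequences are those of RefSeq on GRCm38.p6, at chr10:53337436-53337685 (plus strand) for *Pln*, chr3:102086165-102086414 (plus strand) for *Casq2* and chr17:81738388-81738637 (minus strand) for *Slc8a1*, each written 5′ to 3′ along the gene. Capitals mark a TATAAA, the GATA forms on either strand (AGATAA as well as AGATAG, and TGATAA as well as TGATAG), and in *Casq2* a MEF2 motif.
Pln: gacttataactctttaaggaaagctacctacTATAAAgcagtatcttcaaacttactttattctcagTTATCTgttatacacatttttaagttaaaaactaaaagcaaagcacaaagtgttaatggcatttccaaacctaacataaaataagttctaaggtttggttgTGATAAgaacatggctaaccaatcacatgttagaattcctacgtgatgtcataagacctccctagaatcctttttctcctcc
Casq2: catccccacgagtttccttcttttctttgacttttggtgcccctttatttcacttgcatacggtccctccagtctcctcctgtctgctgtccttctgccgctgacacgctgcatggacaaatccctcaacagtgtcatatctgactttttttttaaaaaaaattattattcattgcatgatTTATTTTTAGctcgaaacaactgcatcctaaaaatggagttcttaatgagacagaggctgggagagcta
Slc8a1: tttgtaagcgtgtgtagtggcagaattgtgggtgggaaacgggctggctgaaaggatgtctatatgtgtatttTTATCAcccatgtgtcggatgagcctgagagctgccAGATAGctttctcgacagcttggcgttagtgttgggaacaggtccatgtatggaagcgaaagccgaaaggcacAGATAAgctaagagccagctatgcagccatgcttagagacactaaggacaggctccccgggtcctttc

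The windows searched ran from 250 bases before to 50 bases after the start site, on both strands, and RefSeq windows were at hand for 7 of the 10 genes, 8 windows in all. TATAAA was found in that of *Pln* alone, 219 to 214 bases before the start, and in 13.6% of the 32851 windows of all genes. A GATA form was found in the windows of *Hrc*, *Pln* and *Slc8a1*, 37.5% of the 8 windows against 29.8% of all windows. The MEF2 motif, bound by a family of muscle transcription factors, was found in *Casq2* 69 to 60 bases before the start and in 3.19% of all windows. The CArG motif was in 0 of the 8 windows and in 1.63% of all windows, and CATTCC was in 0 of the 8 and 14.7% of all. CANNTG was in all 8 windows and in 72.3% of all, and AAGTG, which can overlap a CANNTG, was in 50% of the 8 windows and in 46.4% of all. The 2 windows of *Jph2* overlap and share the same CANNTG and AAGTG, so that by gene AAGTG was in 3 of the 7. These are matches of letters only, and windows of *Atp2a2*, *Sln* and *Trdn* were not analysed here.

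Release genes were lower. *Ryr2* (ENSMUSG00000021313; NCBIM37 chr13:11645370-12199212, minus strand), the release channel, spans 554 kb. Its normalized counts were 1254 and 1526 for WT and 262 and 234 for the libraries labelled Taf4a-/-. The 2 groups lie far apart, and the log2 fold change was -2.47 ± 0.17 (standard error, with adjusted p = 0.00102), which leaves 17.9% of the WT mean. *Trdn* (ENSMUSG00000019787; chr10:32803289-33196515), or triadin, anchors calsequestrin to the receptor. It had 77.2 and 104.9 normalized counts in WT, while the libraries labelled Taf4a-/- had 0 (replicate 1) and 7.74 (replicate 2). The latter were 7 reads, so that the 2 low libraries differ mainly in whether a few reads were seen. The log2 fold change was -4.94 ± 0.99 (standard error, with adjusted p = 0.0173), and WT had 24.7 times the normalized reads (95% exact counting interval 11.8 to 62.3, which covers counting error only). This call was lost without WT replicate 1 (adjusted p = 0.0736) or WT replicate 2 (adjusted p = 0.115), and the fold change was -3.38 without the library at 0 and -6.51 without the other one. With a pseudocount of 10 it was -2.91.

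*Jph2* (ENSMUSG00000017817; chr2:163161978-163223729), junctophilin, holds the SR close to the cell membrane so that the entry channel and *Ryr2* face each other. Its counts were 1080 and 1652 for WT and 166 and 168 for the libraries labelled Taf4a-/-. The low pair was nearly equal and the WT pair was not, and the log2 fold change was -2.99 ± 0.23 (standard error, with adjusted p = 0.00125). Per kb of exon, *Jph2* RNA was 271% to 463% of *Ryr2* RNA across the 4 libraries, with the higher values in WT.

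The store itself was represented by 3 genes. *Casq1* (ENSMUSG00000007122; chr1:174140025-174150026), the calsequestrin named for fast skeletal muscle, had 109 and 169 normalized counts for WT and 16.6 and 26.5 for the libraries labelled Taf4a-/-. It fell by 2.63 on the log2 scale (standard error 0.39, adjusted p = 0.00726), a call lost without WT replicate 2 (adjusted p = 0.0583). A gene on the other strand, *Gm17224*, overlaps 7.89% of its exon bases but had at most 5.20 normalized counts in the WT libraries.

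*Casq2* (ENSMUSG00000027861; chr3:101890338-101950437), the cardiac calsequestrin, was the less abundant of the pair in WT. It had 21.0 and 38.4 normalized counts for WT and 15.7 and 3.32 for the libraries labelled Taf4a-/-, from 16 and 3 reads in the latter. WT replicate 1 and the library labelled Taf4a-/- replicate 1 were thus close, and the log2 fold change of -1.80 ± 0.74 (standard error, with an adjusted p of 0.118) was not called. Without the library labelled Taf4a-/- replicate 1 it would be called, at -2.77 (adjusted p = 0.0263), and without replicate 2 it was -0.82. *Hrc* (ENSMUSG00000038239; chr7:52590660-52594343), a histidine-rich protein that binds calcium in the SR lumen, had 353 and 792 for WT and 39.2 and 48.7 for the libraries labelled Taf4a-/-. The WT libraries differed more from each other in *Hrc* than in any other of the 9 genes tested, and yet both lay far above the other group. The log2 fold change was -3.57 ± 0.40 (standard error, with adjusted p = 0.00344).

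Reuptake genes behaved unequally. *Atp2a2* (ENSMUSG00000029467; chr5:122903531-122952183) had 10907 and 11688 normalized counts for WT and 9287 and 9301 for the libraries labelled Taf4a-/-. The groups did not overlap, but the difference was small, and the log2 fold change of -0.28 ± 0.12 (standard error, with an adjusted p of 0.127) was not called. The 95% confidence interval of that difference went from -0.57 to 0.01, so that these libraries do not show whether the pump's RNA was equal or was reduced by up to 0.57 on the log2 scale. *Pln* (ENSMUSG00000038583; chr10:53057492-53065805), phospholamban, had 269 and 246 in WT, while the libraries labelled Taf4a-/- had 2.94 (replicate 1) and 0 (replicate 2). In reads these were 307 and 237 against 3 and 0, and the fold change of -7.03 ± 0.68 (standard error, with an adjusted p of 0.00241) moved to -4.56 with a pseudocount of 10. From the reads, WT had 166 times the level of the other group (95% exact counting interval 56.5 to 808). *Sln* (ENSMUSG00000042045; chr9:53698058-53701651), sarcolipin, the inhibitor of the pump known from atrial and skeletal muscle, had 3, 1, 0 and 1 reads in the 4 libraries, too few for a test or a fold change.

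**Figure D2:**
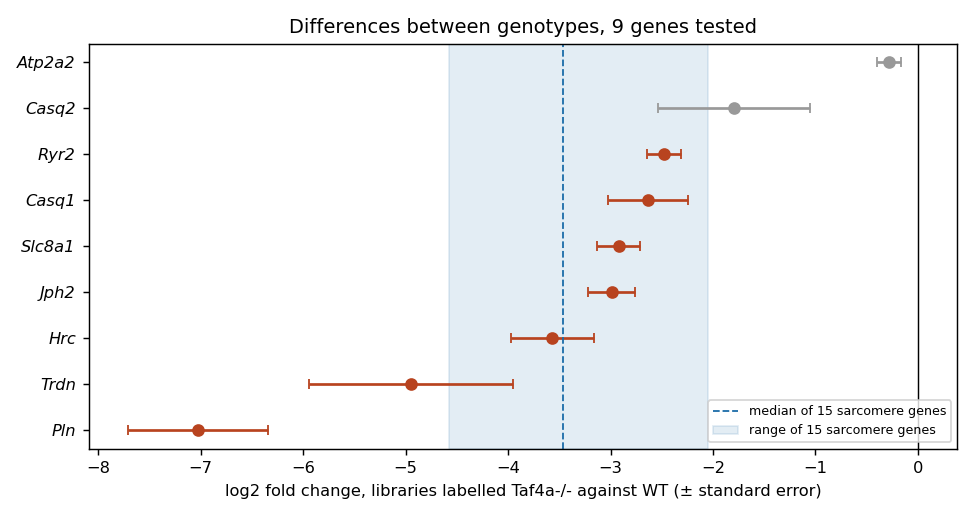
Log2 fold change of the 9 tested genes, libraries labelled Taf4a-/- against WT, with bars of 1 standard error (red, called lower; grey, not called), above the range (shaded) and median (dashed, -3.47) of 15 sarcomere genes. *Pln* at -7.03 and *Trdn* at -4.94 lie left of that range, and *Casq2* at -1.80 and *Atp2a2* at -0.28 lie right of it. With a pseudocount of 10, *Pln* was at -4.56 and *Trdn* at -2.91, so that their place depends on the pseudocount.

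*Slc8a1* (ENSMUSG00000054640; chr17:81785359-82048947), the exchanger NCX1 that removes calcium from the cell, had 2007 and 2959 normalized counts in WT. In the libraries labelled Taf4a-/- it had 299.5 and 344. It fell by 2.92 on the log2 scale (standard error 0.21, adjusted p = 0.00122), the middle value of the 9 genes.

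Levels were compared between genes per kb of exon, as normalized counts. *Atp2a2* was the most abundant of the 10 in both groups, with means of 1991 for WT and 1638 for the libraries labelled Taf4a-/-. It was followed in WT by *Slc8a1* at 654 to 965, then by *Jph2* at 254 to 388 and *Hrc* at 147 to 329, whose ranges overlap. *Pln* came next at 99.3 to 108.5, then *Ryr2* at 68.9 to 83.9 and *Casq1* at 55.0 to 85.6, which overlap as well. *Trdn* at 16.8 to 22.8, *Casq2* at 7.69 to 14.1 and *Sln* at 2.02 to 5.11 ended the order. Set against the pump per kb, *Pln* stood at 5.65% and 4.82% of *Atp2a2* for WT and at 0.0723% and 0% for the libraries labelled Taf4a-/-. Against the same base, the exchanger *Slc8a1* went from 34.0% and 46.8% to 5.97% and 6.84%, and *Ryr2* from 3.59% and 4.07% to 0.881% and 0.786%. Which cells held the pump's RNA was not tested, and forms of its messenger were not counted apart. In RNA of the whole culture, the pump, its inhibitor, the exchanger and the release channel thus stood in other proportions in each group. By contrast, both calsequestrins together were 90.9% and 119% of *Ryr2* RNA for WT and 98.0% and 114% for the libraries labelled Taf4a-/-, ranges that overlap. *Hrc* was 213% and 392% of *Ryr2* for WT and 113% and 157% for the libraries labelled Taf4a-/-.

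Each gene was then set against the sarcomere genes of the same library, as its log2 level minus the mean log2 level of the 17 genes, which itself was 3.12 lower in the libraries labelled Taf4a-/-. Whether the groups overlapped on this scale depended, for 5 of the genes, on *Tnnc1* and *Tcap*, which are in the list but had too few reads for the test. With all 17 genes, *Jph2*, *Slc8a1*, *Casq1* and *Casq2* overlapped, at mean differences between groups of 0.13, 0.20, 0.49 and 1.32. With the 15 tested genes, a choice made after seeing the data, these differences were 0.37, 0.44, 0.73 and 1.56, and both libraries labelled Taf4a-/- lay above both WT libraries for each of the 4. *Jph2* was then at -0.79 and -0.30 for WT and -0.19 and -0.16 for the others, and *Slc8a1* at 0.10 and 0.54 against 0.65 and 0.87. *Hrc* overlapped with either list (-0.45 and -0.21). The values that follow are those against all 17 genes. *Ryr2* was 0.64 higher relative to the sarcomere genes in the libraries labelled Taf4a-/-, with 0.40 and 0.66 in WT and 1.20 and 1.14 in the others. *Atp2a2* was 2.84 higher, with values of 3.52 and 3.59 in WT and 6.34 and 6.45 in the others. *Pln* was the opposite case, with -1.81 and -1.97 for WT and -4.86 and -6.74 for the libraries labelled Taf4a-/-. *Trdn* had -3.60 and -3.19 in WT and -6.84 and -3.61 in the others, so that its lower mean rests on the library without a read, and its groups overlapped against the 15 genes. *Ryr2* and *Atp2a2* were above WT, and *Pln* below it, with either list. These are descriptions without a test, and *Sln* has too few reads for this scale. *Tnnc1*, a troponin of cardiac and slow muscle, had at most 0.877 normalized counts in any library, whereas *Actc1* had 7519 and 6901 in WT. Whether this low value reflects the RNA or how reads were assigned to the gene was not tested. Overlap with other genes was not examined for the markers.

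**Figure D3:**
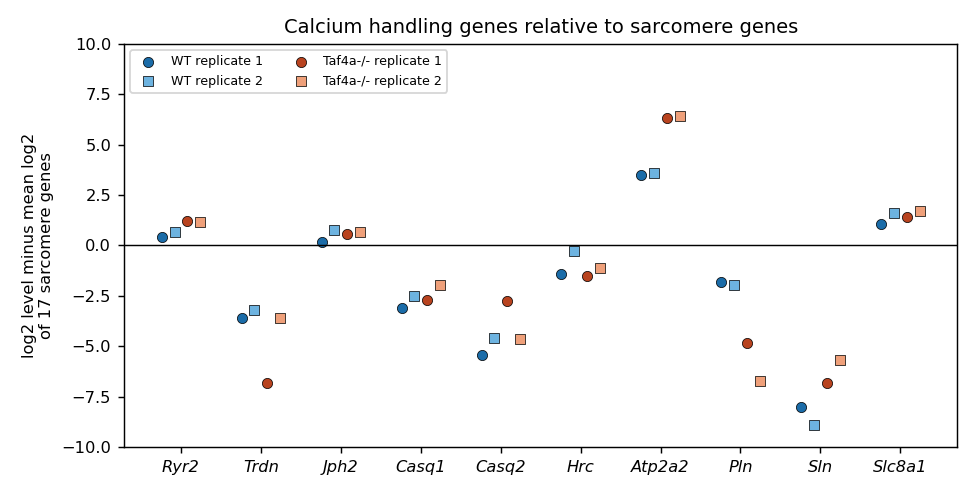
Log2 level of each calcium handling gene minus the mean log2 level of 17 sarcomere genes in the same library, with 1 point for each library (blue, WT; red, labelled Taf4a-/-; circles, replicate 1; squares, replicate 2). *Atp2a2* goes from 3.52 and 3.59 to 6.34 and 6.45, *Pln* goes from -1.81 and -1.97 to -4.86 and -6.74. *Slc8a1* and *Jph2* overlap between the groups here, but not against the 15 tested sarcomere genes alone (0.10 and 0.54 against 0.65 and 0.87 for *Slc8a1*).

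The paralogues of these genes, expressed in other tissues, were examined as shares of their family per kb of exon. In the WT libraries *Ryr2* made up 91.4% and 94.3% of ryanodine receptor RNA. In the libraries labelled Taf4a-/- it made up 49.6% and 53.2%, and *Ryr1*, the receptor of skeletal muscle, made up 41.6% and 40.4%. *Ryr1* itself was higher, with 80.7 and 60.3 normalized counts in WT and 186 and 150 in the others (log2 fold change 1.25, standard error 0.28, adjusted p = 0.0235), a call lost without WT replicate 2, Taf4a-/- replicate 1 or Taf4a-/- replicate 2 (adjusted p = 0.0859, 0.123 and 0.0518). The total of the family was 75.4 and 88.9 per kb in WT against 29.1 and 24.2. A gene on the other strand, *Gm16799*, overlaps 1.95% of the exon bases of *Ryr1*, and reads of the pair cannot be told apart without strand. *Ryr3* was not called (0.74, adjusted p = 0.225). Among skeletal muscle markers, *Myod1*, *Myf5*, *Myog* and *Mymk* had between 0 and 9.64 normalized counts in all 4 libraries. Of 12 such markers 5 were tested and 2 were higher, *Mylpf* (2.89, adjusted p = 0.00151) and *Actn3* (0.86, adjusted p = 0.0498), while *Tnnt3* was not called (-0.59, adjusted p = 0.135). The summed level of the 12 was 368 to 444 for WT and 743 to 930.1 for the libraries labelled Taf4a-/-, and without *Mylpf* it was 301 to 380 and 331 to 357. Their part in the *Ryr1* result was not tested.

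Exchanger RNA was 91.0% and 91.5% *Slc8a1* for WT and 76.4% and 80.5% for the libraries labelled Taf4a-/-. *Slc8a2*, an exchanger known from brain, took 20.3% and 16.7% there, but it too was lower, at -1.48 (standard error 0.25, adjusted p = 0.0101), and *Slc8a3* was not called (-0.80, adjusted p = 0.159). *Jph2* made up 66.0% and 85.4% of junctophilin RNA in WT and 34.4% and 37.4% in the others, and *Jph1*, of skeletal muscle, made up 47.9% and 48.2% there. None of the other junctophilins was called, with -0.38 for *Jph1* (adjusted p = 0.456), -0.58 for *Jph3* (adjusted p = 0.279) and -0.31 for *Jph4* (adjusted p = 0.684). For *Jph1* the sign turned, at 0.11, without WT replicate 1. *Jph4* turned also, at 0.40 without that library and at 0.023 with quantile normalization. The pump family did not shift in this way: *Atp2a2* made up 95.7% to 97.3% of its RNA in all 4 libraries. *Atp2a1*, the fast skeletal pump, of whose exon bases *Rabep2* on the other strand overlaps 21.9% (-0.79, adjusted p = 0.298), and *Atp2a3* (-0.53, adjusted p = 0.184) were not called. *Casq1* made up 87.7% and 85.9% of calsequestrin RNA for WT and 59.5% and 91.7% for the libraries labelled Taf4a-/-. The heart's own isoform *Casq2* was thus the minor one in both WT libraries. In the libraries labelled Taf4a-/-, it had 16 and 3 reads beside 17 and 24 of *Casq1*. The shares there rest on few reads, and the order in replicate 1 is not settled by them.

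**Figure D4:**
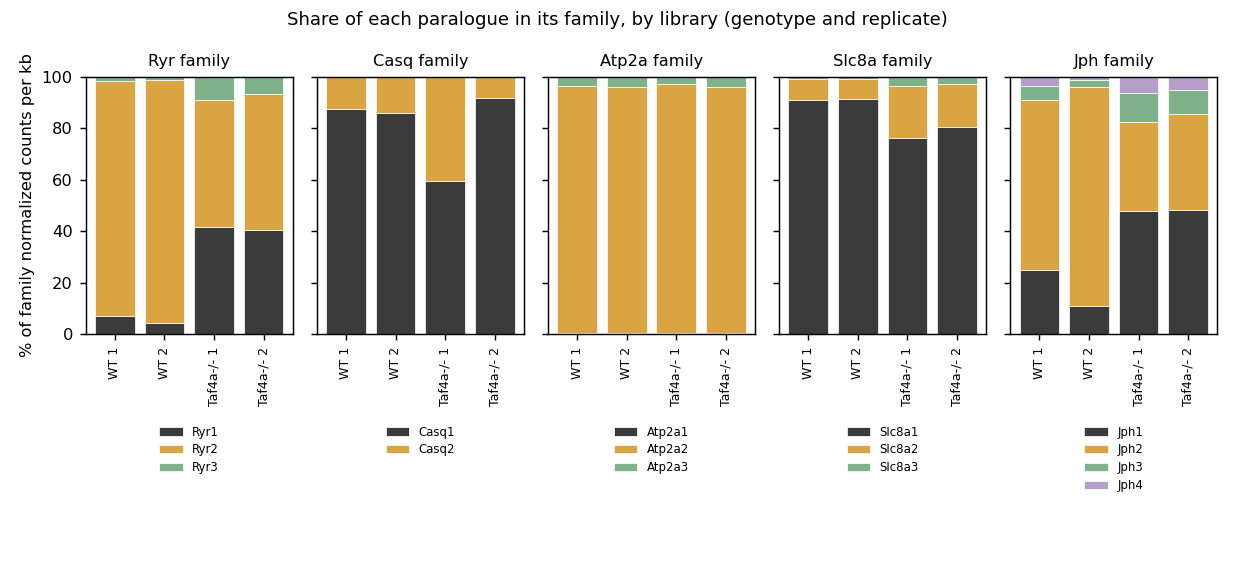
Share of each paralogue in the normalized counts per kb of exon of its family, in percent, with 1 bar for each library (WT 1 and 2, Taf4a-/- 1 and 2 as labelled). The *Ryr2* share goes from 91.4% and 94.3% in WT to 49.6% and 53.2%, whereas the *Atp2a2* share stays between 95.7% and 97.3%.

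Other genes of calcium cycling had smaller fold changes than most of the 10, without a test of that difference. Of 57 further genes in a list by role, 52 were tested, 15 were lower, 2 were higher and 35 were not called, with a median of -0.41 and a range from -2.12 to 1.29. The background, as above, was 17.3% lower and 11.3% higher. Genes of calcium entry had 3 of 5 lower: *Cacnb2*, *Cacna1d* and *Cacna1c*, subunits of the voltage-gated channel. *Cacnb2* had 256 and 220.3 normalized counts for WT and 53.8 and 54.2 for the libraries labelled Taf4a-/- (-2.12, adjusted p = 0.0036). *Cacna1c*, the pore of the cardiac channel, had 499 and 514 in WT and 239.8 and 267 in the others (-1.0, adjusted p = 0.01), and *Cacna1d* was at -1.28 (adjusted p = 0.0112). Extrusion had 2 of 4 lower, the membrane pump *Atp2b4* at -1.85 (3353 and 5132 in WT, 1085 and 1218 in the others, adjusted p = 0.00352) and *Slc8a2*.

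Among 13 tested regulators of the release complex, 5 were lower and 1 was higher. *S100a1*, a calcium sensor of the heart that acts on the receptor and the pump, had 590.0 and 813 for WT and 183 and 169 for the libraries labelled Taf4a-/- (-1.97, adjusted p = 0.00301). *Akap6*, the scaffold that brings protein kinase A to the receptor, was at -1.50 (adjusted p = 0.0309). Of the CaM kinase II genes, *Camk2a* (-1.17, adjusted p = 0.0225) and *Camk2d*, the main form of the heart (-0.76, adjusted p = 0.0251), were lower. *Camk2b* was higher, with 86.8 and 90.4 in WT and 246 and 194 in the others (1.29, standard error 0.24, adjusted p = 0.0141). Storage had 2 of 6 lower, with *Rcn1*, a calcium-binding protein of the endoplasmic reticulum, at -1.10 (adjusted p = 0.00763). Of the release channels 0 of 5 were lower and *Ryr1* was higher. Junction had 1 of 6 lower, store refill 1 of 5, mitochondrial uptake 1 of 3 and reuptake 0 of 5. At an unadjusted p-value under 0.05, 1 release channel and 1 reuptake gene were lower, and voom called 0 genes lower in either role. Voom did call *Ryr1* higher (adjusted p = 0.0253). Among these 17 calls, *Cacnb2*, *S100a1*, *Atp2b4* and *Rcn1* were called under each of the 14 alternatives run, and the other 13 were each lost under at least 2.

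**Figure D5:**
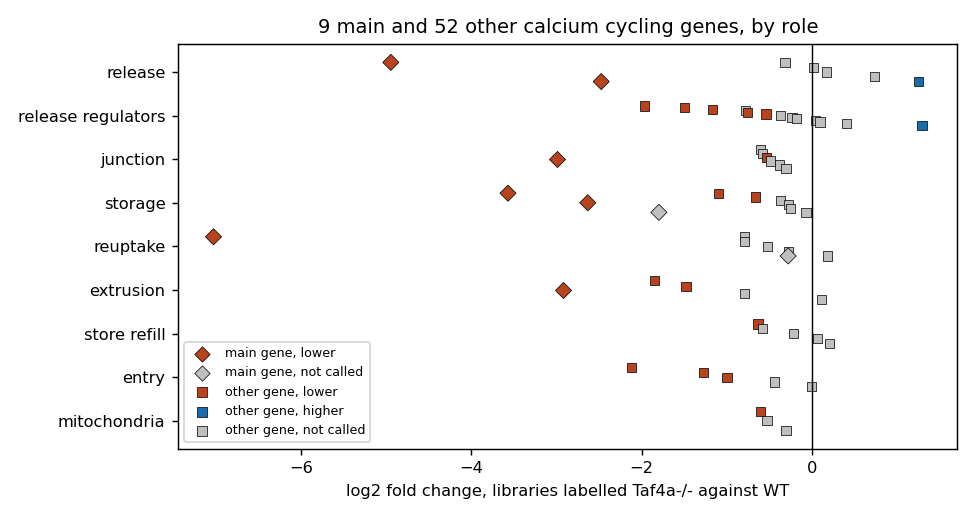
Log2 fold change, libraries labelled Taf4a-/- against WT, of the 9 tested calcium handling genes (diamonds) and 52 other calcium cycling genes (squares) by role (red, lower; blue, higher; grey, not called). The 52 other genes lie between -2.12 and 1.29, and 8 of the 9 diamonds lie at -1.80 or below.

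Markers of other cells moved between the groups as well. Of 8 fibroblast and feeder genes, 7 were lower (*Col3a1* at -3.68, *Col1a1* at -3.33, *Col1a2* at -3.77), and of 7 smooth muscle genes 4 were lower, with *Acta2* at -1.14, and *Tagln* (-0.77) and *Smtn* (-0.41) not called. Across all 7 smooth muscle genes the log2 fold changes ranged from -3.88 to -0.40, so that less abundant ones fell further than these 3. The summed level of the smooth muscle genes was 30716 and 54666 for WT and 20818 and 20034 for the libraries labelled Taf4a-/-, and that of the fibroblast and feeder genes was 429319 and 596621 against 48130.3 and 60341. *Atp2a2*, *Pln*, *Slc8a1* and *Casq2* are known from smooth muscle too, and the part of these cells in the results above was not tested. Of 7 genes of pluripotent cells 6 were higher (*Pou5f1* at 2.54, *Sox2* at 1.93, with *Tdgf1* at 1.91 not called), summed at 1648 to 4772 in WT and 14515 to 17004 in the others. All 6 macrophage genes (*Csf1r* at -6.14, *Cx3cr1* at -9.20, *C1qb* at -9.01, the latter pair with 0 reads in 1 of the libraries) and all 5 genes of visceral endoderm and liver (*Afp* at -8.07, *Ttr* at -6.27, *Apoa1* at -7.46) were lower. Of 6 cardiac transcription factors 4 were lower, *Nkx2-5* (-2.64), *Tbx5* (-2.87), *Mef2c* (-1.59) and *Gata4* (-0.63), while *Hand2* (0.46) and *Tbx20* (-0.23) were not called. Neuronal genes had 2 of 7 lower (*Nefl* at -1.61, with *Tubb3* at 0.30 and *Stmn2* at 0.52 not called), and endothelial genes 1 of 5, with *Kdr*, *Cdh5* and *Pecam1* not called. The sarcomere genes summed to 40524 and 40488 for WT and to 4950.4 and 4360 for the libraries labelled Taf4a-/-, with *Actc1* at -4.58, *Myh7* at -2.24 and *Myh6* at -3.92.

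The WT libraries were not alike in these genes. WT replicate 2 was above WT replicate 1 in 8 of the 9 tested genes, all but *Pln*, when 51.8% of all genes were, and the median log2 difference between them was 0.56, beside 0.02 for all genes. It was 0.18 for the sarcomere genes, 0.40 for fibroblast and feeder genes, 0.77 for smooth muscle genes and -1.18 for genes of pluripotent cells. The largest such difference was that of *Hrc* (1.16), and the smallest were those of *Atp2a2* (0.10) and *Pln* (-0.13). Every one of these differences was smaller than the fold change of the same gene between the groups. In genome span the 10 genes had a median of 54.4 kb beside 19.0 kb for the genes tested, and 30% of them (*Ryr2*, *Trdn* and *Slc8a1*) exceeded 200 kb, which 4.84% of the genes tested did. *Hrc* and *Pln* spanned 3.68 and 8.31 kb.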

How the data were processed

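Polyadenylated RNA was converted to libraries with the TruSeq v2 kit, which does not mark strand. Per the submitters' processing notes, the authors used CASAVA 1.8, TopHat 1.3.3 (mm9/NCBI37), HTSeq 0.5.3p1 and DESeq, where the paper's methods name DESeq 2 for the normalization, and deposited read counts per gene divided by a size factor for each library (1.14 and 0.962 for WT, 1.02 and 0.904 for the others). Whether counting used strand is not given in the sources used here. The deposited values were whole multiples of the value of 1 read (within 0.01 reads) in all 4 libraries, which gave the reads behind them.

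A filter on the mean over the 4 libraries (10 or more normalized counts) left 16926 of 24637 genes. They were compared, 2 libraries against 2, on log2(normalized count + 1) with lmFit and eBayes (variance trend) of limma 3.58.1 under R 4.3.3, with Benjamini-Hochberg adjustment and a threshold of 0.05. With 2 libraries in each group the test rests on a spread shared across genes (4.17 prior degrees of freedom), and an exact permutation test could not reach that threshold. The counting intervals cover counting error only, as reads carried no molecular identifiers. Counting intervals were exact (scipy 1.17.1), gene positions and exon lengths came from the NCBIM37 annotation, promoters from RefSeq on GRCm38.p6, and figures from matplotlib 3.10.9 in Python 3.11.15.

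The genes and lists were chosen with earlier results of these data known, so that no list is independent evidence. Named genes were *Taf4a*, the 10 calcium handling genes and their paralogues, the 12 called genes with the largest change among the other calcium cycling genes, and the 3 most abundant markers of each list. Markers named beyond these (*Tnnc1*, *Tcap*, *Myod1*, *Myf5*, *Myog*, *Mymk*, *Nkx2-5*, *Tbx5*, *Mef2c*), and the overlapping genes *4921531C22Rik*, *Gm17224*, *Gm16799* and *Rabep2*, were chosen after their values were seen. Of 151 listed genes, 149 were found as 1 gene, 6 of them under an older symbol, such as *Mymk* as *Tmem8c*. *Myf6* was not found, and *Pde4d*, which had 2 entries, was left out. Alternatives were voom on the recovered reads, a replicate block, 1 library left out, and changed pseudocount, filter, scaling, threshold or variance model. They were applied to the counts of genes called and to the median of the calcium handling genes. They were also applied to fold changes of the tested calcium handling genes, their paralogues and the called calcium cycling genes. Results for *Taf4a* and the markers, levels per kb and paralogue shares were not followed through them.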

Additional observations from a re-analysis of the deposited data

How the results depend on the processing

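Of the calcium handling genes, 5 to 8 were lower when 1 library was left out in turn (5 without WT replicate 2, 8 without Taf4a-/- replicate 1), and 6 or 7 under all other alternatives, with 0 higher in each. Their median log2 fold change lay between -3.20 and -2.64 without 1 library and between -2.92 and -2.78 otherwise. *Ryr2*, *Jph2*, *Slc8a1*, *Hrc* and *Pln* kept their call in every fit. *Trdn* lost it without a variance trend (adjusted p = 0.0597), at a threshold of 0.01 and without either WT library, *Casq1* lost it without WT replicate 2, and *Casq2* was called only without Taf4a-/- replicate 1. With 1 library left out, the log2 fold change of *Jph1* ranged from -0.87 (without WT replicate 2) to 0.11 (without WT replicate 1) and that of *Jph4* from -1.01 to 0.40 without the same libraries, and *Jph4* was at 0.023 with quantile normalization. Against the 15 tested sarcomere genes in place of all 17, a setting added after the data were seen, the difference of *Ryr2* was 0.88 and that of *Atp2a2* 3.08. Over all genes, 1741 were lower and 856 higher without a variance trend, 1119 and 331 at the threshold of 0.01, and 1222 to 3038 lower and 624 to 2476 higher without 1 library, the fewest lower without WT replicate 2 and the fewest higher without Taf4a-/- replicate 2. Of the other calcium cycling genes, 8 were lower without a variance trend, 4 were lower and 0 higher at the threshold of 0.01, and 5 to 21 were lower and 0 to 3 higher without 1 library. WT replicate 2, when left out, gave 5 lower and 0 higher, and Taf4a-/- replicate 1 gave 7 and 0, while leaving out Taf4a-/- replicate 2 gave 1 higher. Fits without 1 library also had fewer libraries to test with, and the cause of these changes was not tested. Libraries with the same replicate number did not deviate together (correlation of deviations across genes 0.01), which cannot show whether they were processed in pairs. With a replicate block 7 calcium handling genes were lower, 2657 genes were lower and 1536 higher, and 13 other calcium cycling genes were lower and 2 higher. Tests of the counts with edgeR or DESeq2 and TMM scaling were not run. Depth limits *Sln*, *Casq2* and the libraries labelled Taf4a-/- for *Pln* and *Trdn*, each with 16 reads or fewer there.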
